A study of Homo sapiens with 6 samples.

Results

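The genes of cholesterol and fatty acid synthesis were read from RNA sequencing of ARPE-19, a spontaneously arising human cell line of the retinal pigment epithelium (RPE). They are 37 named genes, found by their symbols among the 58735 genes of the deposited count table, and all 37 passed the filter on low counts that 13787 genes passed. By role they are 5 genes of the SREBP factors and their control, 18 enzymes of sterol synthesis, 1 sterol carrier (STARD4) and 13 enzymes of fatty acid synthesis, elongation, desaturation and activation. Cells of the OE CD51 ICD group had the genotype label of CD51_ICD over expression and gave 3 libraries. Cells of the NC group, the controls, had the genotype label WT and gave 3 libraries. The series title sets these cells within work on microglia, RPE cells and the SPP1-ITGAV axis in dry age-related macular degeneration, and CD51 is the integrin alpha V subunit, encoded by ITGAV. The labels give neither the vector nor its promoter, the number of clones or the time after its introduction, and whether replicate libraries stem from different cultures is not said. A p-value here is therefore set against variation among the libraries sequenced, which may be technical.

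Cells make cholesterol from acetyl-CoA through the mevalonate pathway, squalene and lanosterol, and they make fatty acids from the same acetyl-CoA through malonyl-CoA and palmitate, which are then lengthened and desaturated. The SREBP transcription factors drive both routes. They are held in the endoplasmic reticulum with their escort SCAP by the INSIG proteins while sterols are plentiful, and are cleaved in the Golgi when sterols run low, so their activity is set by cleavage of the protein and not by mRNA level alone. SREBP-2, from SREBF2, acts mainly on sterol genes, and SREBP-1, from SREBF1, mainly on fatty acid genes. RPE cells take up and process the lipid-rich outer segments of photoreceptors.

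Total counts were 14577912 to 15640428 in OE CD51 ICD libraries and 13616694 to 16934668 in NC libraries. Levels are given as CPM, counts scaled to a common library size after TMM scaling, and levels of different genes are set against each other only as FPKM, which also divides by gene length. ITGAV had 436, 536 and 370.5 CPM in OE CD51 ICD libraries, against 113, 92.7 and 89.3 CPM in NC libraries. It was 4.54-fold higher (log2 fold change 2.18 ± 0.11 SE, adjusted p = 1.47e-16 by edgeR's quasi-likelihood test), and reads of the construct and of the cell's own ITGAV cannot be told apart in a gene total. Of 10 RPE markers, RPE65 and TTR had no count in any library, where 3 counts over all 6 libraries would be 0.0333 CPM. BEST1 and TYR stayed under the filter on low counts, RLBP1 (log2 fold change 0.81) and PMEL (0.80) rose, MITF fell (-0.56), and OTX2, KRT8 and KRT18 did not pass. The summed RPE markers, carried by the epithelial keratins KRT8 and KRT18, came to 4620 to 5350 CPM in OE CD51 ICD libraries and 5150 to 5610 CPM in NC libraries. Markers of lipid-making adipocytes and hepatocytes summed to at most 0.132 CPM in OE CD51 ICD libraries and at most 0.142 CPM in NC libraries, with ADIPOQ, LEP and APOA1 at 0, and those of endothelial cells to 0.132 to 0.547 CPM in OE CD51 ICD libraries and 0.81 to 1.42 CPM in NC libraries. Fibroblast markers summed to 374 to 415 CPM in OE CD51 ICD libraries and 213 to 238 CPM in NC libraries with DCN at 0, nearly all of it PDGFRB, and microglia and macrophage markers to 30.5 to 36.9 CPM in OE CD51 ICD libraries and 2.57 to 4.18 CPM in NC libraries with P2RY12 at 0, nearly all of it CSF1R; the part of either in the results was not tested. In these bulk libraries, fewer cells of a kind and less RNA per cell cannot be told apart.

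Of the 37 genes, 19 rose in OE CD51 ICD cells, 6 fell and 12 did not pass the test (edgeR's quasi-likelihood test, called at an adjusted p under 0.05 with adjustment over all 13787 genes). Of these 37, 51.4% rose and 16.2% fell, where among all genes tested 51.0% were called, 25.2% as higher and 25.8% as lower. At least 2-fold, 5 of the 37 rose and none fell, while 6.89% of all genes rose and 5.83% fell by that much. The libraries of the 2 groups did not overlap in 27 of the 37 genes, which is 73.0% beside 57.5% of all genes. The median log2 fold change was 0.29 over the 37 genes and 0.01 over all genes tested. In sterol synthesis 10 of 18 enzymes rose and 1 fell, with a median of 0.30. Among the fatty acid enzymes 6 of 13 rose and 4 fell, with a median of -0.01 and a mean of 0.33, which differ in sign. The difference between the branches was described by these counts and not tested.

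**Figure D1:**
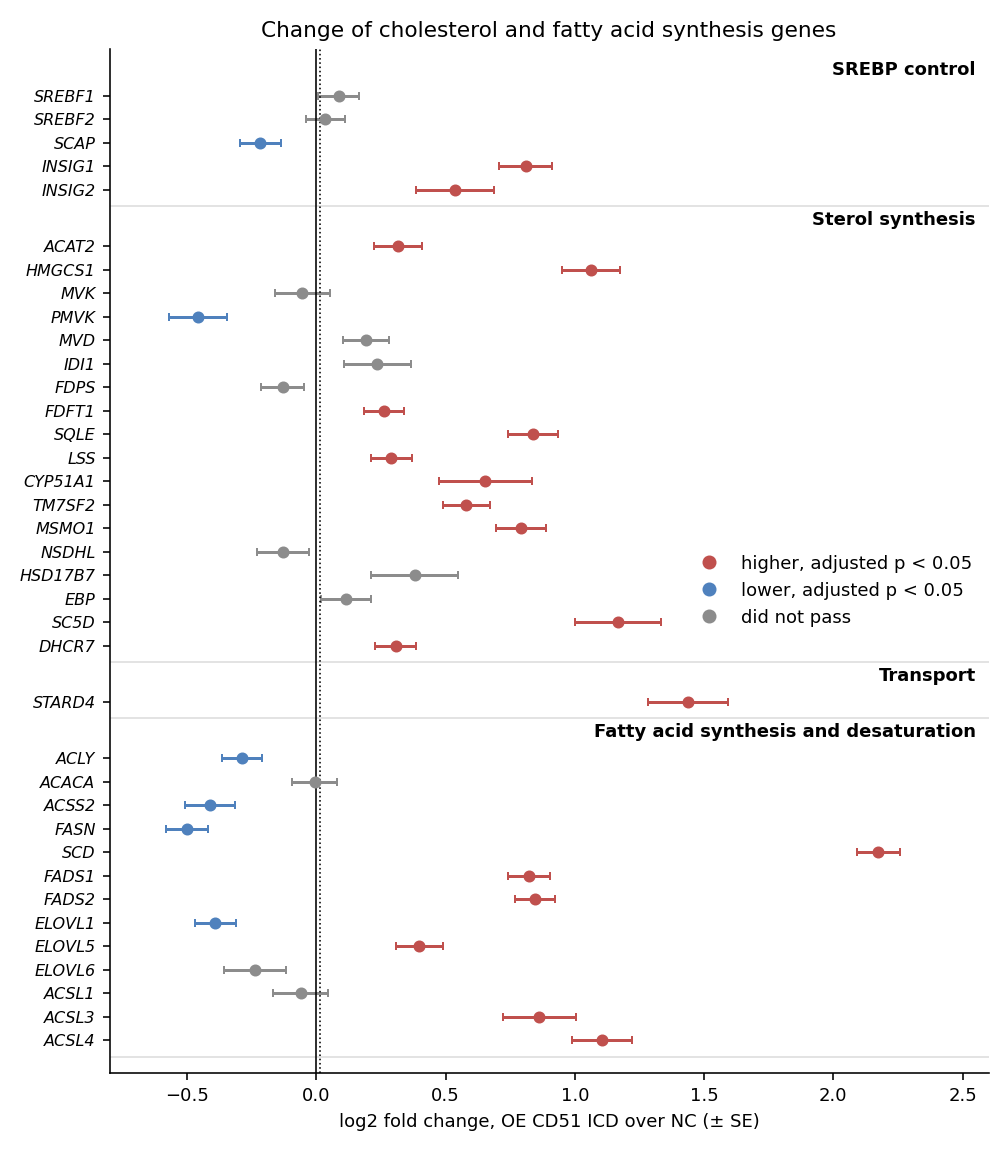
Log2 fold changes (OE CD51 ICD over NC, ± SE, 3 libraries each) of the 37 genes, grouped by role. Sterol enzymes ran from -0.46 for PMVK to 1.17 for SC5D, and fatty acid enzymes from -0.50 for FASN to 2.17 for SCD.

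Neither SREBP gene passed the test, though both passed with the GC trend removed (SREBF1 0.32, SREBF2 0.18). SREBF1 had 140.5, 132 and 143 CPM in OE CD51 ICD libraries, against 130.2, 126 and 135 CPM in NC libraries (log2 fold change 0.09 ± 0.08, adjusted p = 0.389 by edgeR's quasi-likelihood test). SREBF2 had 580.2, 543 and 579 CPM in OE CD51 ICD libraries, against 546, 544 and 570.3 CPM in NC libraries (0.03, adjusted p = 0.723 by the same test). For both genes the libraries of the groups overlapped. SREBF2 was the more abundant of the pair on the FPKM scale, with 74.2 ± 3.67 FPKM in OE CD51 ICD and 72.7 ± 2.17 FPKM in NC cells (SD, n = 3), where SREBF1 had 17.0 ± 0.938 FPKM in OE CD51 ICD and 16.1 ± 0.611 FPKM in NC cells. SREBF1 shares 556 exonic bases, 6.9% of its own, with RAI1 on the opposite strand, and reads there cannot be told apart where the use of strand is not given.

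Both INSIG genes rose, INSIG2 with a call that was lost when the GC trend was removed (0.29, adjusted p = 0.0752 by edgeR's quasi-likelihood test). INSIG1, which retains SCAP in the endoplasmic reticulum and is itself a target of the SREBPs, had 63.1, 69.8 and 55.9 CPM in OE CD51 ICD libraries, against 38.9, 36.0 and 32.9 CPM in NC libraries. All 3 OE CD51 ICD libraries lay above all 3 NC libraries (log2 fold change 0.81 ± 0.10, adjusted p = 1.12e-07 by edgeR's quasi-likelihood test). INSIG2, its paralogue with the same retention role, had 16.7, 17.9 and 13.9 CPM in OE CD51 ICD libraries, against 11.9, 9.49 and 12 CPM in NC libraries (0.54 ± 0.15, adjusted p = 0.0037 by the same test). Its groups were also apart. SCAP, the escort, had 148, 136 and 149 CPM in OE CD51 ICD libraries, against 169, 162 and 172 CPM in NC libraries (-0.22 ± 0.08, adjusted p = 0.0237 by the same test). Its groups did not overlap, but its call was lost under 8 of 20 alternative settings, 4 of which each left out a single library (NC replicate 1 or 3, OE CD51 ICD replicate 1 or 2), with adjusted p of 0.00185 to 0.921 over the 20.

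The promoters of the genes that changed most in each branch are shown with that of SREBF2, since the SREBPs act by binding DNA in promoters. The RefSeq table of promoters (GRCh38.p14), 250 bases before 1 start per gene, held 33 of the 37 genes and not ACAT2, FDFT1, SQLE or FASN. The SREBP motif TCACNCCAC, searched on both strands, was in 1 of the 33, SREBF2, and in 239 of all 27305 promoters of that length (0.875%). As no gene past the threshold held it, the strongest rise and the strongest fall of each branch with an entry were printed instead, a choice made after the values were seen. The CCAAT motif was in 21 of the 33 (63.6%) and 33% of all promoters, in 12 of 15 of the sterol branch and 6 of 12 of the fatty acid branch, and GGGCGG in 30 of the 33 (90.9%) and 42.3% of all promoters. By direction, CCAAT was in 11 of 16 genes that rose, 3 of 5 that fell and 7 of 12 that did not pass. The set of all promoters was not limited to genes expressed here, whereas all 33 genes passed the filter on low counts. Shares among expressed genes alone were not computed. Capitals mark every match to the 3 motifs, on either strand, and no matches overlap in the 5 sequences. A match is a run of letters and not a bound site. Likewise, the lack of a match to 1 fixed string in these windows does not show that a gene lacks an SREBP site. The RefSeq start can lie inside the gene as the count table spans it: 30 of the 33 windows held bases inside that span and 13 lay wholly inside, among them those of SC5D, PMVK and ACSS2, while SCD had 109 and SREBF2 26 such bases. The coordinates and strands are chr11:121292521-121292770 (plus) for SC5D, chr1:154936720-154936969 (minus) for PMVK, chr10:100346983-100347232 (plus) for SCD, chr20:34874739-34874988 (plus) for ACSS2 and chr22:41832855-41833104 (plus) for SREBF2. In SREBF2 the SREBP motif lies 133 to 125 bases before the start.
SC5D: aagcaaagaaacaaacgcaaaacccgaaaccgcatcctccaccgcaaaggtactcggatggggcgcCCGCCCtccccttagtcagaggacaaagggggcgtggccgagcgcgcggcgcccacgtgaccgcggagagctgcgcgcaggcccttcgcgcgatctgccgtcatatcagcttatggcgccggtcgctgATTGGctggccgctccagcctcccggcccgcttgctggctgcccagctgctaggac
PMVK: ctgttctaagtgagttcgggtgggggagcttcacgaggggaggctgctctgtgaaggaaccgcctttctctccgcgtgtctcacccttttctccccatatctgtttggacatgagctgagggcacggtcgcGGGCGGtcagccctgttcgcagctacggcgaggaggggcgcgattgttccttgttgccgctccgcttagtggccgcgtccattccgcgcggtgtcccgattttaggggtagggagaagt
SCD: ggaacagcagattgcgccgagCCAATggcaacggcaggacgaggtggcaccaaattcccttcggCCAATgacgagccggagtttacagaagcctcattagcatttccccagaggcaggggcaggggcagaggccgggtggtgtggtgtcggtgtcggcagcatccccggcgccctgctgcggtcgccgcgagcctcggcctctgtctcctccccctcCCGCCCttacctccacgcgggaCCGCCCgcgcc
ACSS2: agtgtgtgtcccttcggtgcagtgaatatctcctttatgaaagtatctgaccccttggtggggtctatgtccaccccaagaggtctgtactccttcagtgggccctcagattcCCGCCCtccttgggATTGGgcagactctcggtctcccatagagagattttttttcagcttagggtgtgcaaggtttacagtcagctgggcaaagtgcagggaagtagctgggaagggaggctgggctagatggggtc
SREBF2: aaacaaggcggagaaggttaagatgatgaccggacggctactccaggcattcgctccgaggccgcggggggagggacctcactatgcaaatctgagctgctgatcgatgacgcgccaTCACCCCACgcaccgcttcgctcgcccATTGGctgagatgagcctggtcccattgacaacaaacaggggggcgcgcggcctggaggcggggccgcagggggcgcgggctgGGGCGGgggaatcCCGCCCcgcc

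In the early sterol pathway ACAT2 and HMGCS1 rose, PMVK fell and 4 genes did not pass. Among all genes tested, 25.2% rose and 25.8% fell. ACAT2, the cytosolic thiolase that joins acetyl-CoA units, had 81.9, 78.2 and 83.2 CPM in OE CD51 ICD libraries, against 69.2, 69.7 and 56.6 CPM in NC libraries (log2 fold change 0.31, adjusted p = 0.00545 by edgeR's quasi-likelihood test). The groups were apart, though the call was lost without NC replicate 3 (0.22, adjusted p = 0.0618; 0.00165 to 0.0638 over all alternatives), and 397 of its exonic bases are shared with TCP1, which fell. HMGCS1, which makes HMG-CoA, the substrate of the mevalonate step (chr5:43289395-43313512, minus strand, hg38), had 61.9, 68.3 and 49.6 CPM in OE CD51 ICD libraries, against 31.5, 27.8 and 26.8 CPM in NC libraries. It was 2.09-fold higher with groups well apart (1.06 ± 0.11, adjusted p = 3.47e-09 by the same test). PMVK, the phosphomevalonate kinase (chr1:154924734-154936991, minus strand, hg38), was the single sterol enzyme that fell, with 27.8, 31.0 and 38.6 CPM in OE CD51 ICD libraries, against 45.1, 43.2 and 45.5 CPM in NC libraries (-0.46 ± 0.11, adjusted p = 0.00099 by the same test). MVK, MVD, IDI1 and FDPS, the farnesyl diphosphate synthase, did not pass the test, although MVD, the decarboxylase, passed under 4 alternatives, without OE CD51 ICD replicate 2 among them, and IDI1, the isomerase, passed without OE CD51 ICD replicate 3. MVK, mevalonate kinase, had 39.8 to 42.6 CPM in OE CD51 ICD and 38.8 to 49.2 CPM in NC cells, with a log2 fold change of -0.05. It shares 306 exonic bases, 4.7% of its own, with MMAB on the opposite strand, which fell. MVD had 81.1 to 99.7 CPM in OE CD51 ICD and 76.8 to 81.5 CPM in NC cells (0.19). IDI1 had 35.3 to 48.5 CPM in OE CD51 ICD and 26.6 to 38.9 CPM in NC cells (0.24), and FDPS 115 to 132 CPM in OE CD51 ICD and 129 to 141 CPM in NC cells (-0.13). The groups of all 4 overlapped.

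From squalene synthase onward, 8 of 11 enzymes rose and none fell, where 25.2% of all genes tested rose and 25.8% fell. Such counts by step of a pathway were descriptive and not tested. FDFT1, squalene synthase, had 349.9, 345 and 376 CPM in OE CD51 ICD libraries, against 306, 301 and 287 CPM in NC libraries (log2 fold change 0.26, adjusted p = 0.00564 by edgeR's quasi-likelihood test). SQLE, the squalene epoxidase and a rate-limiting step of the pathway, had 119.9, 131 and 108 CPM in OE CD51 ICD libraries, against 66.8, 76.0 and 57.9 CPM in NC libraries (0.84 ± 0.10, adjusted p = 1.9e-08 by the same test). LSS, which closes the ring to lanosterol, had 269, 258 and 295 CPM in OE CD51 ICD libraries, against 226, 232 and 214 CPM in NC libraries (0.29, adjusted p = 0.0031 by the same test). In each of these 3 genes every OE CD51 ICD library lay above every NC library. SQLE reached 0.75, 0.854 and 0.616 of the FPKM of LSS in OE CD51 ICD libraries, against 0.496, 0.551 and 0.456 in NC libraries, a pair picked after the values were seen.

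Past lanosterol, 5 enzymes rose and 3 did not pass, where 25.2% of all genes tested rose and 25.8% fell. MSMO1, the C4-methyl sterol oxidase, had 85.7, 91.7 and 75.8 CPM in OE CD51 ICD libraries, against 52.6, 49.8 and 43.6 CPM in NC libraries (log2 fold change 0.79, adjusted p = 5.29e-08 by edgeR's quasi-likelihood test). SC5D, the lathosterol desaturase (chr11:121292453-121308694, plus strand, hg38), had 20.3, 19.1 and 13.3 CPM in OE CD51 ICD libraries, against 8.62, 8.0 and 6.83 CPM in NC libraries. It rose most of the sterol enzymes, 2.25-fold (1.17 ± 0.17, adjusted p = 8.87e-07 by the same test; 0.77 on the log2(FPKM + 1) scale). CYP51A1, the lanosterol demethylase, had 9.68, 11.1 and 9.23 CPM in OE CD51 ICD libraries, against 6.54, 7.65 and 4.93 CPM in NC libraries (0.65 ± 0.18, adjusted p = 0.00326 by the same test). TM7SF2, a C14 sterol reductase, had 111, 97.2 and 125 CPM in OE CD51 ICD libraries, against 77.5, 73.9 and 71.4 CPM in NC libraries (0.58, adjusted p = 4.47e-06 by the same test). DHCR7, which reduces 7-dehydrocholesterol to cholesterol, had 268, 257 and 303 CPM in OE CD51 ICD libraries, against 226, 217 and 226 CPM in NC libraries (0.31, adjusted p = 0.00207 by the same test). The groups of all 5 genes were apart. HSD17B7, a 3-ketosterol reductase, had 13.8, 10.7 and 9.87 CPM in OE CD51 ICD libraries, against 9.66, 9.35 and 7.43 CPM in NC libraries, apart but with an adjusted p of 0.0608 by the same test (0.38), and it passed under 4 alternatives. NSDHL, the sterol C4 dehydrogenase, had 41.1 to 45.1 CPM in OE CD51 ICD and 42.9 to 50.7 CPM in NC cells (-0.13). EBP, the sterol isomerase, had 64.7 to 85.4 CPM in OE CD51 ICD and 64.5 to 73.6 CPM in NC cells (0.11), and for both the groups overlapped.

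STARD4, a carrier that moves cholesterol between membranes inside the cell (chr5:111496033-111512590, minus strand, hg38), had 21.5, 21.7 and 19.1 CPM in OE CD51 ICD libraries, against 9.31, 7.22 and 6.35 CPM in NC libraries. It was 2.71-fold higher, with no overlap (log2 fold change 1.44 ± 0.16, adjusted p = 5.22e-09 by edgeR's quasi-likelihood test). Its antisense transcript STARD4-AS1 also rose, with 11.7 CPM in OE CD51 ICD and 2.79 CPM in NC cells on average, and the pair shares 124 exonic bases, 2.2% of those of STARD4.

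**Figure D2:**
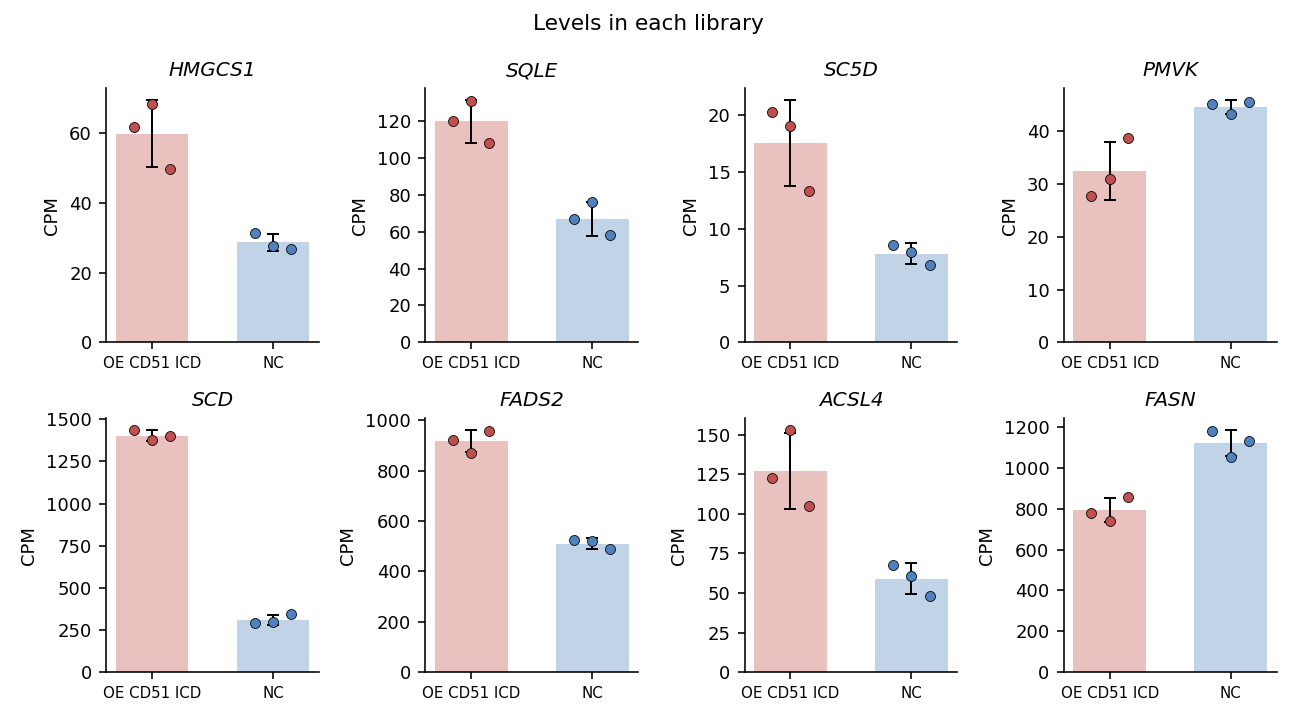
CPM of 8 genes in each library (points) with the mean (bars) and SD, 3 libraries per group. HMGCS1, SQLE, SC5D, SCD, FADS2 and ACSL4 lay higher in every OE CD51 ICD library than in any NC library, and PMVK and FASN lay lower.

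Of the 4 enzymes that supply and build palmitate, 3 fell and ACACA did not pass, where 25.8% of all genes tested fell. This count was descriptive and not tested. ACLY, which splits citrate to acetyl-CoA, had 332, 302 and 342 CPM in OE CD51 ICD libraries, against 395, 394 and 402 CPM in NC libraries (log2 fold change -0.29, adjusted p = 0.00262 by edgeR's quasi-likelihood test). ACSS2, which makes acetyl-CoA from acetate, had 40.4, 37.5 and 45.7 CPM in OE CD51 ICD libraries, against 54.8, 54.9 and 54.6 CPM in NC libraries (-0.41, adjusted p = 0.000813 by the same test). FASN, the synthase that builds palmitate (chr17:82078333-82098332, minus strand, hg38), had 779, 741 and 858 CPM in OE CD51 ICD libraries, against 1180.0, 1054 and 1129 CPM in NC libraries (-0.50 ± 0.08, adjusted p = 4.86e-06 by the same test). In each of these 3 genes every OE CD51 ICD library lay below every NC library. ACACA, the acetyl-CoA carboxylase that commits carbon to fatty acids, had 156, 155 and 135 CPM in OE CD51 ICD libraries, against 139, 140.0 and 169 CPM in NC libraries. Its groups overlapped, the log2 fold change was -0.01 (adjusted p = 0.96 by the same test), and its sign turned under 5 of 20 alternatives.

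All 3 fatty acid desaturases of the 37 genes rose, where 25.2% of all genes tested did. Of their paralogues on the partner list, SCD5 averaged 24.8 ± 1.84 CPM in OE CD51 ICD and 34.8 ± 3.85 CPM in NC cells (SD, n = 3 each) and fell (log2 fold change -0.49, adjusted p = 0.000655 by edgeR's quasi-likelihood test), and FADS3 rose (0.59, adjusted p = 1.27e-07 by the same test); both were picked after the values were seen. SCD, which puts the first double bond into stearate and palmitate (chr10:100347124-100364834, plus strand, hg38), had 1435, 1375 and 1400.0 CPM in OE CD51 ICD libraries, against 292, 298 and 344 CPM in NC libraries. It changed most of the 37 genes, 4.51-fold (log2 fold change 2.17 ± 0.08, adjusted p = 3.06e-19 by edgeR's quasi-likelihood test). FADS1, the delta-5 desaturase of polyunsaturated fatty acids, had 257, 281 and 251 CPM in OE CD51 ICD libraries, against 142, 158 and 146 CPM in NC libraries (0.82, adjusted p = 7.58e-10 by the same test). FADS2, the delta-6 desaturase, had 924, 871 and 957 CPM in OE CD51 ICD libraries, against 524, 520.3 and 488 CPM in NC libraries (0.84, adjusted p = 1.7e-10 by the same test). All 3 fatty acid desaturases were apart between the groups. FADS1 and FADS2 share 490 exonic bases on opposite strands, 4.8% of FADS1 and 4.4% of FADS2. FADS1, FADS2 and FADS3 all lie on chromosome 11, where 40.4% of tested genes rose. The FPKM of FADS2 over that of FADS1 was 3.34, 2.88 and 3.53 in OE CD51 ICD libraries, against 3.42, 3.05 and 3.1 in NC libraries, which overlap. SCD over FASN, in contrast, was 3.22, 3.24 and 2.85 in OE CD51 ICD libraries, against 0.432, 0.493 and 0.532 in NC libraries, and both pairs were picked after the values were seen.

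Of the elongases, ELOVL5 rose and ELOVL1 fell, where 25.2% of all genes tested rose and 25.8% fell. ELOVL5, which lengthens polyunsaturated fatty acids, had 105, 116 and 93.1 CPM in OE CD51 ICD libraries, against 81.4, 84.0 and 73.5 CPM in NC libraries (log2 fold change 0.40, adjusted p = 0.000555 by edgeR's quasi-likelihood test). ELOVL1, which lengthens saturated and monounsaturated very long chains, had 157, 149.5 and 166 CPM in OE CD51 ICD libraries, against 200.1, 209 and 211 CPM in NC libraries (-0.39, adjusted p = 0.000128 by the same test). Both pairs of groups were apart, in opposite directions. ELOVL6, which lengthens palmitate to stearate, had 19.4, 21.5 and 21.3 CPM in OE CD51 ICD libraries, against 27.1, 22.7 and 23.4 CPM in NC libraries, apart but short of the threshold (-0.24, adjusted p = 0.103 by the same test), and it passed under 2 alternatives.

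Of the acyl-CoA synthetases, which activate free fatty acids for use in lipids or oxidation, 2 of 3 rose, where 25.2% of all genes tested did. The 2 that rose, ACSL3 and ACSL4, are under 45% GC, where 35.0% of all genes tested rose. ACSL4, which prefers polyunsaturated fatty acids such as arachidonate (chrX:109624244-109733403, minus strand, hg38), had 123, 153 and 105 CPM in OE CD51 ICD libraries, against 67.8, 60.8 and 48.3 CPM in NC libraries, 2.15-fold higher (log2 fold change 1.10, adjusted p = 2.35e-09 by edgeR's quasi-likelihood test). ACSL3, a form found on lipid droplets and the endoplasmic reticulum, had 25.4, 26.9 and 21.8 CPM in OE CD51 ICD libraries, against 16.4, 12.6 and 11.6 CPM in NC libraries (0.86, adjusted p = 7.02e-06 by the same test). Both were apart between the groups. ACSL1 had 34.7 to 41.5 CPM in OE CD51 ICD and 35.6 to 42.0 CPM in NC cells, which overlap (-0.06, adjusted p = 0.663 by the same test).

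Per length, the order of the genes changed at the top of the fatty acid branch. SCD had 258.5 ± 8.02 FPKM in OE CD51 ICD cells (SD, n = 3), the highest of the 37 genes there, and 57.6 ± 5.51 FPKM in NC cells, the rank of 5. FASN had 83.7 ± 7.23 FPKM in OE CD51 ICD cells and 119 ± 6.65 FPKM in NC cells, where it ranked 1, and FADS2 had 82.2 ± 4.91 FPKM in OE CD51 ICD cells and 46.0 ± 1.65 FPKM in NC cells. In OE CD51 ICD cells FASN, FADS2 and SREBF2 followed SCD with overlapping means ± SD, whereas in NC cells ELOVL1 (81.8 ± 2.50 FPKM) and ACLY (75.6 ± 1.11 FPKM) followed FASN. At the low end, STARD4 had 3.61 ± 0.219 FPKM in OE CD51 ICD cells and 1.33 ± 0.262 FPKM in NC cells, and HSD17B7 2.37 ± 0.434 FPKM in OE CD51 ICD cells and 1.83 ± 0.244 FPKM in NC cells. Summed over the 13 fatty acid enzymes, the libraries held 658.6, 628.9 and 665.9 FPKM in OE CD51 ICD and 457.2, 449.6 and 464.3 FPKM in NC, with SCD at 39.1% to 40.3% of the sum in OE CD51 ICD libraries and FASN the leading gene at 24.8% to 27.3% in NC libraries. Summed over the 18 sterol enzymes they held 440.1, 421.6 and 469.4 FPKM in OE CD51 ICD and 388.0, 377.1 and 360.0 FPKM in NC, and no enzyme led by more than 15.5% in any library.

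**Figure D3:**
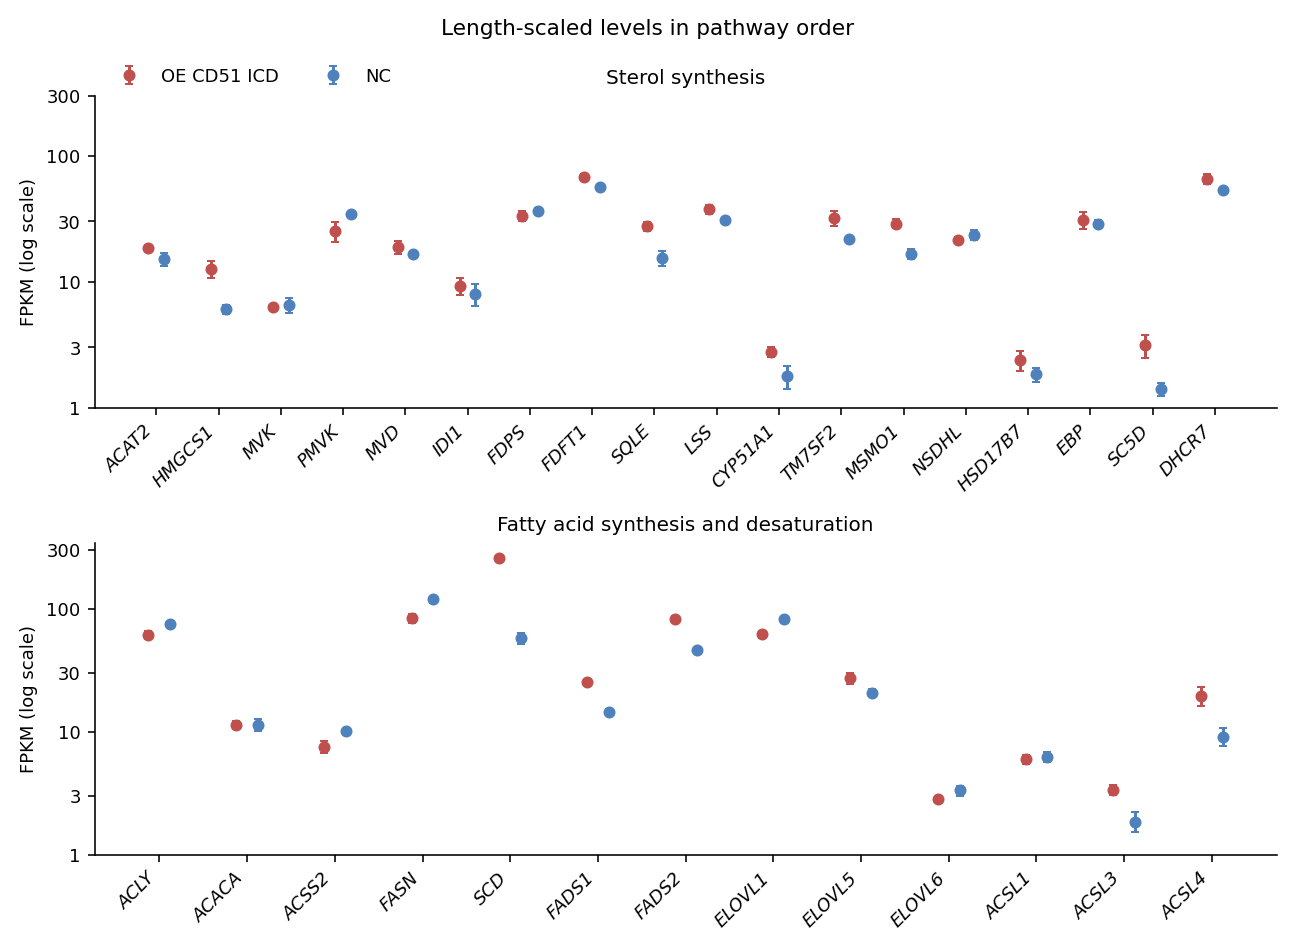
FPKM (log axis, mean ± SD, 3 libraries per group) of the enzymes of each branch. The pathway order named in the title holds for the sterol enzymes only. Fatty acid enzymes stand in the order of the gene list, which is not that of the reactions. SCD stood at 258.5 FPKM in OE CD51 ICD and 57.6 FPKM in NC cells, while FASN stood at 83.7 FPKM in OE CD51 ICD and 119 FPKM in NC cells.

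Changes and base composition moved together, in these genes and in all genes. Of 12 genes under 45% GC in their longest transcript, 9 rose, none fell and the median log2 fold change was 0.72, whereas among all 5007 tested genes of that band 1752 rose, 560 fell and the median was 0.24. Of 13 genes of 55% GC or more, 4 rose, 4 fell and the median was 0.035, and among all 4089 such genes 572 rose, 1813 fell and the median was -0.25. Across genes, which are not independent replicates and share the same 6 libraries, GC and log2 fold change had Pearson's r of -0.54 and Spearman's rho of -0.56 over the 37 genes, and r of -0.23 and rho of -0.32 over 13781 genes. With that trend removed from every library, SREBF1 (0.32, adjusted p = 0.000214), SREBF2 (0.18), MVD (0.43), ELOVL6 (-0.47) and ACSL1 (-0.23) passed edgeR's quasi-likelihood test, while INSIG2 (0.29, adjusted p = 0.0752; 0.000965 to 0.0752 over all alternatives) and SCAP (0.01, adjusted p = 0.921) did not. By over 1.5 times it moved the log2 fold changes of FASN (-0.24), PMVK (-0.27), ELOVL5 (0.17), CYP51A1 (0.42), LSS (0.46) and DHCR7 (0.47), all still past the threshold. A GC trend of the libraries and a change of GC-rich or GC-poor transcripts in the cells cannot be told apart here.

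**Figure D4:**
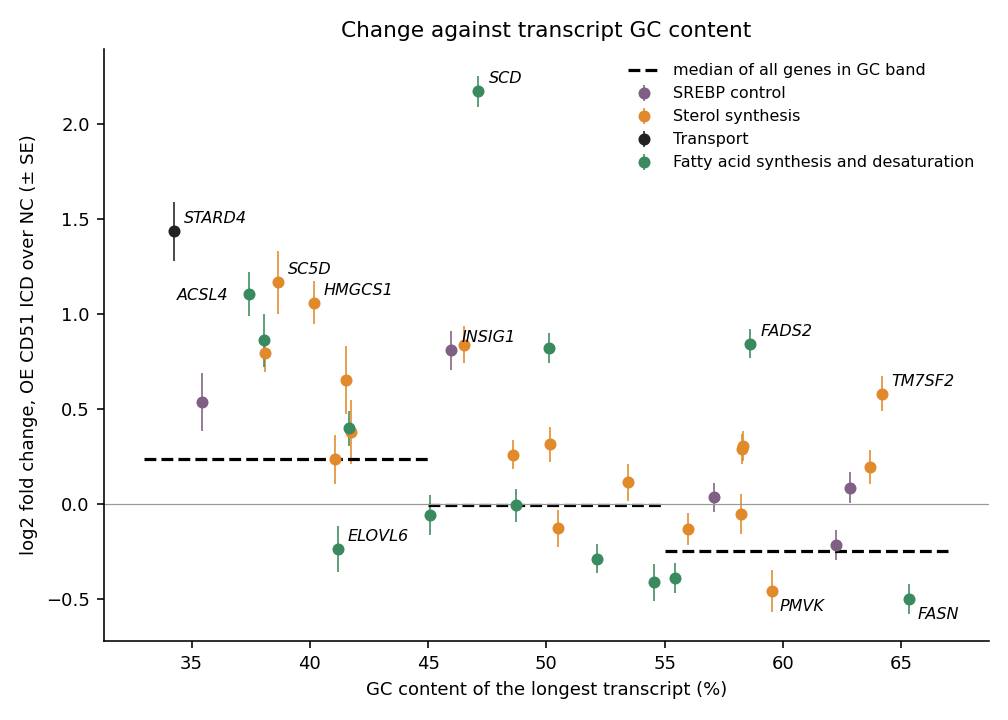
Log2 fold change (OE CD51 ICD over NC, ± SE) against the GC percentage of the longest transcript for the 37 genes, with dashed lines at the median of all tested genes in each GC band. Those medians were 0.24 under 45% GC, -0.01 from 45% to 55% and -0.25 above, and the 12 genes of the lowest band had a median of 0.72.

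Chromosome 11 held 5 of the 37 genes, TM7SF2, SC5D, DHCR7, FADS1 and FADS2, and all 5 rose, with a median log2 fold change of 0.82. Of all 792 tested genes on that chromosome 320 rose and 137 fell, with a median of 0.21, against a median of -0.001 over the 12995 genes elsewhere. Off chromosome 11, 14 of 32 genes rose (43.8%) and 6 fell (18.8%), where 24.2% and 26.3% of all tested genes there did. Among sterol enzymes there, 7 of 15 rose (46.7%) and 1 fell (6.67%), with a median of 0.26. Of 11 fatty acid enzymes there, 4 rose and 4 fell (36.4% each), with a median of -0.06. The part of the chromosome in the changes of these 5 genes was not tested.

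Other genes of the same pathways were read from lists made with earlier results of these data known. Of 10 genes of SREBP cleavage and sterol-regulated degradation, 3 rose (30%) and 2 fell (20%), near the 25.2% and 25.8% of all genes tested. RNF145, a ubiquitin ligase of sterol control, averaged 89.0 ± 11.1 CPM in OE CD51 ICD and 60.2 ± 4.12 CPM in NC cells (SD, n = 3 each; log2 fold change 0.56), and RNF139, another such ligase, rose by 0.535.

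Of 10 tested partners of sterol synthesis 2 rose (20%) and 3 fell (30%), also near the 25.2% and 25.8% of all genes. NUS1, a subunit of the dolichol-making prenyltransferase, rose by 0.55, and ACAT1, the mitochondrial thiolase, by 0.28, which was lost in 5 of 6 fits that left out a library. CYB5A, the cytochrome b5 that feeds electrons to desaturases and sterol oxidases, averaged 9.83 ± 0.579 CPM in OE CD51 ICD and 21.6 ± 1.66 CPM in NC cells (log2 fold change -1.14), and POR, the reductase that feeds electrons to P450 enzymes, fell by 0.42. Of 18 tested partners of fatty acid synthesis 5 rose (27.8%) and 8 fell (44.4%), where 25.2% and 25.8% of all genes did. HACD2, a dehydratase of elongation (0.78), and ELOVL7 (0.62) rose most, and ELOVL2 (-0.92) and MCAT, the mitochondrial malonyl transferase (-0.67), fell most among those averaging at least 5 CPM.

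Of 10 genes of sterol sensing and transport, 10% rose and 40% fell, where 25.2% and 25.8% of all genes did. The 1 that rose was the oxysterol-binding OSBP (0.57), and the 4 that fell included NR1H2, the nuclear oxysterol receptor LXR-beta (-0.40), and TMEM97 (-0.43, a call lost without NC replicate 2 or OE CD51 ICD replicate 1). Of 9 tested genes of glycerolipid synthesis, which uses the fatty acids made, 2 rose (22.2%) and 6 fell (66.7%), where 25.2% and 25.8% of all genes did. GPAM, the first acyltransferase of that route, averaged 42.5 ± 6.47 CPM in OE CD51 ICD and 8.12 ± 1.71 CPM in NC cells, 5.22-fold higher (log2 fold change 2.38, adjusted p = 2.16e-14 by edgeR's quasi-likelihood test). LPIN2, a phosphatidate phosphatase, rose by 0.66. DGAT2, which makes triacylglycerol, averaged 2.99 ± 0.823 CPM in OE CD51 ICD and 10.8 ± 1.88 CPM in NC cells (-1.86, adjusted p = 1.19e-08 by the same test), and PLIN2, the lipid droplet coat protein, 52.4 ± 1.26 CPM in OE CD51 ICD and 94.2 ± 15.3 CPM in NC cells (-0.84, adjusted p = 2.89e-08 by the same test). For GPAM, DGAT2 and PLIN2 the libraries of the groups did not overlap.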

How the data were processed

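RNA was taken with TRNzol or a Quick-RNA kit and made into libraries with a SMARTER mRNA kit, per the labels' protocols, without saying which extraction served which library. The authors deposited whole-number gene counts for 6 libraries and, per the file headers, an FPKM value for the same genes, and no library was pooled. The build was hg38, per the submitters' processing notes; neither aligner, counter nor strand use is given in the sources used here. All 58735 gene IDs and their coordinates matched GENCODE 29.

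The deposited counts went into edgeR 4.0.16 under R 4.3.3 (filterByExpr, TMM, glmQLFit, glmQLFTest, two-sided, Benjamini-Hochberg adjustment over 13787 genes; biological coefficient of variation 9.44%), OE CD51 ICD over NC, called at an adjusted p under 0.05. The fit was also run on simulated counts with known changes, and the outcome of that run is not given here. Alternatives used other scalings and filters, DESeq2 1.42.0, limma 3.58.1 (voom on the counts, and log2 of FPKM + 1 or + 0.1), removal of a loess GC trend (span 0.3, GC of the longest GENCODE 29 transcript), omission of chromosome 11 and of each library, and a replicate block. FPKM was otherwise used as deposited.

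The 37 genes, the other gene lists and the alternatives were chosen with earlier results of these data known. Each of the 37 is given with its values, and other lists by counts and by up to 2 rises and 2 falls among called genes averaging at least 5 CPM, apart from genes that are not reported here. Printed promoters were to be those of called genes that hold the SREBP motif, and since none did, the rule was widened after the values were seen. For 30 of the 33 promoters, bases 26 to 50 after the RefSeq start were found near the start of a GENCODE 29 transcript of the gene. No 2 libraries of a group agreed within counting noise (chi-square per degree of freedom 3.9 to 11.89 over the 6 pairs).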

Additional observations from a re-analysis of the deposited data

How the results depend on the processing

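Over 20 alternatives the genes of the 37 called as higher numbered 18 to 21 and those called as lower 5 to 8, apart from omission of chromosome 11, which left 14 of 32 higher and 6 lower. Of the 25 calls, 23 to 25 were kept in the same direction, and 20 without chromosome 11, where 5 of the genes were not fitted. Sterol enzymes called as lower numbered 2 with scaling by library size only, the added gene being FDPS. Fatty acid enzymes called as lower numbered 6 with the GC trend removed. Leaving out 1 library at a time gave 18 to 21 genes higher and 5 to 6 lower, a median log2 fold change of 0.24 to 0.35 for sterol enzymes and of -0.06 to 0.09 for fatty acid enzymes, and 3007 to 3641 of all genes higher and 2936 to 3654 lower. Over all genes the counts were 2896 higher and 4051 lower by library size only and 2384 higher and 2730 lower by limma on log2(FPKM + 1) without a filter.

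Signs turned, on the log2 scale, for SREBF2 by library size only (-0.028), SCAP (0.008), MVK (0.113) and IDI1 (-0.004) with the GC trend removed, and ACACA by upper-quartile scaling (0.039), among protein-coding genes (0.010) and without chromosome 11 (0.005). With 1 library left out, MVK ran from -0.119 to 0.064, ACACA from -0.060 to 0.086 and ACSL1 from -0.137 to 0.007. The cause was not tested. On the log2(FPKM + 1) scale, which understates changes of low genes, GPAM changed by 1.53, CYB5A by -0.69, ELOVL2 by -0.53 and DGAT2 by -0.78. With the GC trend removed, ACAT1 (0.06) lost its call and NUS1 (0.30), POR (-0.21), ELOVL7 (0.38) and NR1H2 (-0.19) kept theirs.

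The replicate numbers did not pair the libraries: deviations of same-numbered libraries from their group means correlated at -0.05, 0.001 and 0.051 across genes. A replicate block gave 3437 genes higher and 3552 lower, with 19 and 6 of the 37, and changed none of their calls.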

Other observations

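Of the 18 sterol enzymes, NC replicate 1 was the highest NC library in 12 and the lowest in 0, and NC replicate 3 was the highest in 1 and the lowest in 14, where over all tested genes NC replicate 1 was highest in 36.9% and NC replicate 3 lowest in 36.4%. Among OE CD51 ICD libraries, replicate 3 was highest in 11 of the 18 and lowest in 7, and replicate 2 was highest in 5 and lowest in 10. Over all tested genes, OE CD51 ICD replicate 3 was highest in 37.9% and lowest in 38.6%. Replicate 2 of that group was highest in 38.6% and lowest in 37.1%. No test was made of these orders.

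Transcripts that lie with these genes also had values of their own. FEN1, a DNA repair nuclease that shares 49 exonic bases with FADS2, averaged 53.6 CPM in OE CD51 ICD and 125 CPM in NC cells and fell, while FADS2 rose. The pseudogenes HSD17B7P2 and CYP51A1P2 had CPM, not divided by length, of 7.28% and 5.17% of those of HSD17B7 and CYP51A1. HSD17B7P2 averaged 1.02 CPM in OE CD51 ICD and 0.454 CPM in NC cells and rose. CYP51A1P2 stayed under the filter on low counts. SREBF2-AS1, antisense to SREBF2, averaged 4.26 CPM in OE CD51 ICD and 3.72 CPM in NC cells and, like SREBF2, did not pass the test.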
